A study of Homo sapiens with 12 samples.

Results

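MAPK output and feedback genes are transcripts that are induced by ERK, the last kinase of the RAS, RAF, MEK and ERK cascade. The products of the feedback genes among them, such as phosphatases and Sprouty proteins, act back on that cascade, while *EGR1* and *ETV1* encode transcription factors of its output. The genes read here were *DUSP4*, *DUSP5*, *DUSP6*, *SPRY1*, *SPRY2*, *SPRED1*, *PHLDA1*, *EGR1* and *ETV1*. They were chosen by name, as a transcript readout of ERK signalling, with earlier results of these data known, and matched to the count table by Ensembl identifier. All 9 were found among the 12584 genes of the table.

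RNA-seq was performed in A549 and PC9, cell lines derived from non-small cell lung cancer, to ask which genes respond to overexpression of the homeobox transcription factor HOXC6. A549-HOXC6 and PC9-HOXC6 cells carried a lentiviral HOXC6 vector, A549-NEO and PC9-NEO cells carried the empty vector, and all 4 groups had been put under neomycin selection. Each group had 3 libraries, labelled as independent replicates, so 12 libraries were available. All were stable lines under 1 drug, and the labels name no separate infection or clone, so p-values measure the spread between libraries of the same line. A549 and PC9 were kept in different basal media, so cell line and culture medium cannot be told apart. HOXC6 itself was not analysed here, so the groups were not checked on its transcript.

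In the ERK cascade, a growth factor receptor such as EGFR loads RAS with GTP, RAS recruits RAF, and RAF activates MEK and then ERK. ERK phosphorylates ternary complex factors and other ETS proteins, which switch on immediate early genes such as *EGR1* and, somewhat later, brakes such as the dual-specificity phosphatases and the Sprouty and SPRED proteins.

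The count totals ran from 1212053 in A549-HOXC6 replicate 2 to 3286577 in PC9-HOXC6 replicate 3, with a median of 2156966. A floor of 3 counts per library equalled 0.915 to 2.57 normalized CPM, that is, CPM of the library total after TMM scaling. The 4 epithelial markers in the table (*EPCAM*, *CDH1*, *KRT7* and *KRT18*) summed to between 7802 and 11682 normalized CPM in the 12 libraries, with A549-HOXC6 (9233 to 11626) above A549-NEO (7802 to 8012). *KRT7* and *KRT18* carried that sum, whereas *CDH1* was lower in A549-HOXC6 (139 ± 22.4 normalized CPM, SD, n = 3) than in A549-NEO (183 ± 6.67) and *EPCAM* was at 5.31 ± 1.04 and 5.76 ± 1.12. The part of that difference in the results was not tested. The lung epithelial markers *NKX2-1*, *NAPSA*, *SFTPB* and *SFTPC* summed to at most 8.56 normalized CPM, with 2 of the 4 at or under the floor in every library of each group. Of the other cell types' markers, 1 of 4 for leukocytes and 1 of 3 for endothelium were in the table, both under 2.15 normalized CPM in every library. Of 6 fibroblast markers, 3 to 5 per group were at or under the floor in every library, and their sum was 19.5 to 77.6 normalized CPM. In both lines the HOXC6 libraries also differed from the NEO libraries by GC content. Across genes, the log2 fold change correlated with GC content at a Spearman rho of 0.53 in A549 and of 0.527 in PC9. A549-HOXC6 replicate 3 had the steepest trend of a single library (rho 0.364, against 0.129 to 0.163 in the other HOXC6 libraries). Values after a correction for GC content and length are given where they change a result.

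Promoter sequences are shown for *EGR1*, *DUSP6* and *PHLDA1*, the 3 members with the largest differences between the lines for which RefSeq promoters were at hand. *DUSP4* and *DUSP5* had none. The windows hold the 250 bases before the RefSeq start (GRCh38.p14), at chr5:138465229-138465478 on the forward strand for *EGR1*, chr12:89352502-89352751 on the reverse strand for *DUSP6* and chr12:76031777-76032026 on the reverse strand for *PHLDA1*. Each is written 5′ to 3′ on the strand of its gene, with capitals for CArG boxes, the ETS motif CCGGAA and the HOX-PBX motif TGATNNAT on either strand.
EGR1: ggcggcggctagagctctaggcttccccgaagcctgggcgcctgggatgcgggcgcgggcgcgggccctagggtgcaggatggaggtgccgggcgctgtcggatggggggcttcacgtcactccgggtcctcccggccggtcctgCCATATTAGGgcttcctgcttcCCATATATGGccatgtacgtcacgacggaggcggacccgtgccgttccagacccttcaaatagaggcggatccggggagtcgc
DUSP6: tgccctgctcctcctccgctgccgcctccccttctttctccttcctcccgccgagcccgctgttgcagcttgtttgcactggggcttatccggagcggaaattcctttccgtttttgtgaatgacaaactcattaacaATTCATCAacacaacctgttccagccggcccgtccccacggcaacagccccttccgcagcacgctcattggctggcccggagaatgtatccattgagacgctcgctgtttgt
PHLDA1: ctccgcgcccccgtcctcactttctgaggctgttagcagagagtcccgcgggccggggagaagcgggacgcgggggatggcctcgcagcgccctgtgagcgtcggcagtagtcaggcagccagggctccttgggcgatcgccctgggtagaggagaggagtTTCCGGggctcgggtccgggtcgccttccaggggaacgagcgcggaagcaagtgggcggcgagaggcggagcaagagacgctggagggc
The *EGR1* window held 2 CArG boxes, the element bound by serum response factor together with ERK-activated ternary complex factors, starting 105 and 83 bases before the start. Of 35116 promoter windows of this length, 1.16% held a CArG box. The *DUSP6* window held a single HOX-PBX motif, on the reverse complement, as did 6.47% of windows. The *PHLDA1* window held a single ETS motif, also on the reverse complement, as did 14.5% of windows. The ETS motif was also found in windows of *SPRY1*, *SPRY2* and *ETV1*, and the HOX-PBX motif in a window of *ETV1*. No match to the AP-1 motif TGANTCA was found in the 15 windows of the 7 members, against 6.57% of all windows. These are matches of letters and not measured binding.

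The empty-vector cells give the level of each gene in the 2 lines without HOXC6. A549-NEO had more *DUSP5* and *PHLDA1*, PC9-NEO had more *EGR1* and *DUSP6*, and *DUSP4* was high in both. In bulk RNA, fewer cells that use a gene and less RNA per cell cannot be told apart. On the scale of normalized CPM per kilobase of exon, which allows genes to be compared, the order in A549-NEO was *DUSP5* (230 ± 8.14, SD, n = 3), *PHLDA1* (70.7 ± 4.26) and *DUSP4* (60.7 ± 3.90). The other 6 genes were at or under 5.88, and among *SPRY2*, *DUSP6*, *SPRED1* and *EGR1* each neighbour overlapped the next within 1 SD. In PC9-NEO the order was *EGR1* (63.6 ± 7.66), *DUSP4* (50.8 ± 1.73), *DUSP5* (27.4 ± 3.28), *DUSP6* (23.9 ± 1.29) and *PHLDA1* (20.4 ± 1.0), and of these neighbours only *DUSP5* and *DUSP6* overlapped within 1 SD. *SPRY1* and *ETV1* were the 2 lowest members in each of the 4 groups.

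**Figure D1:**
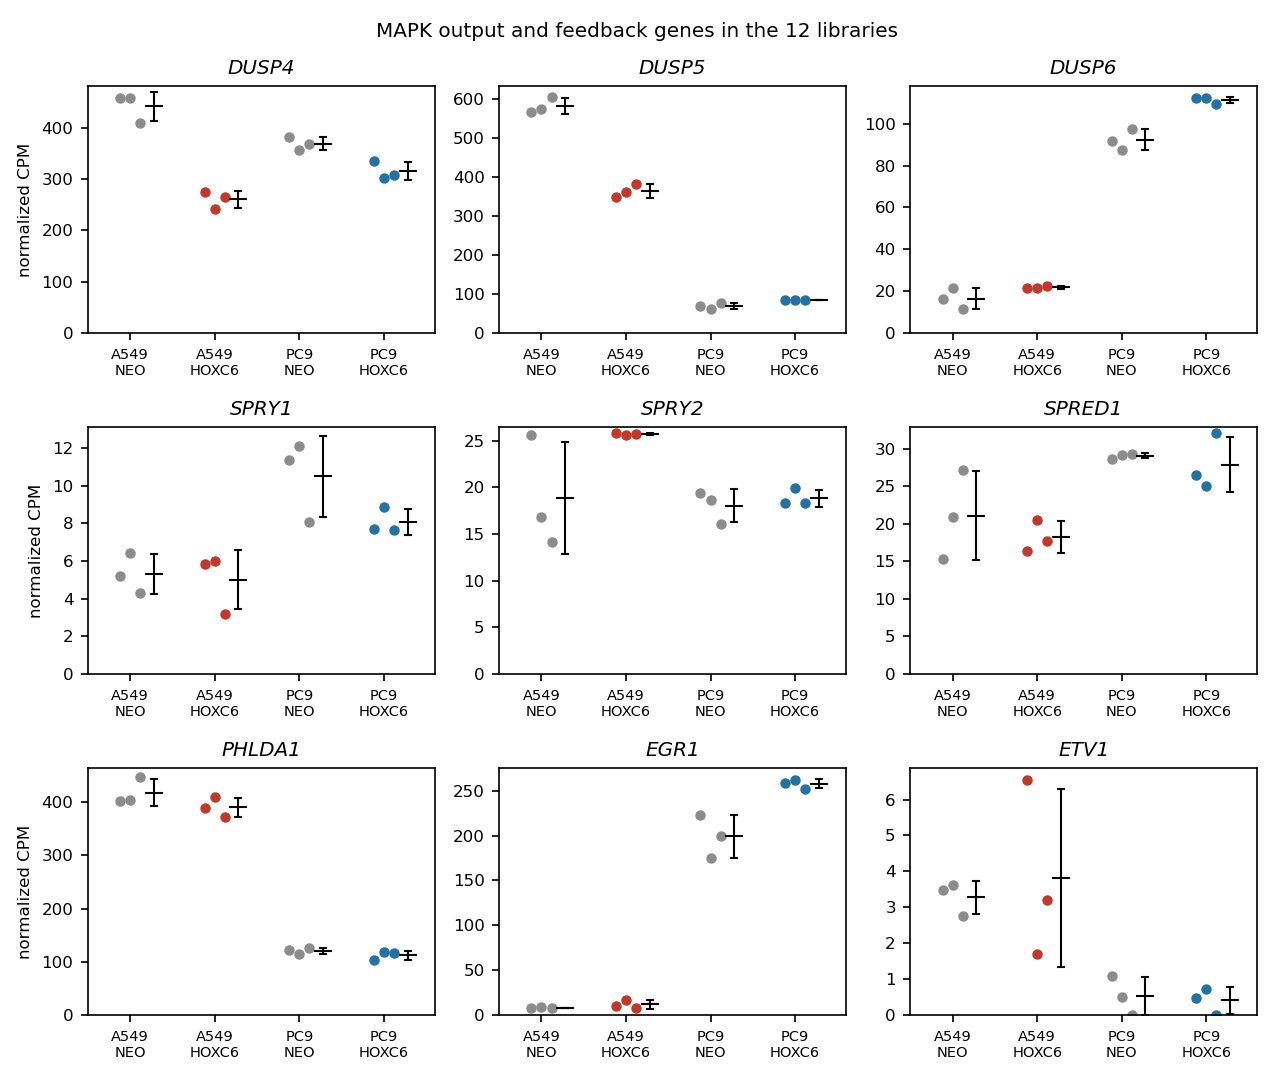
Level of each of the 9 genes in normalized CPM (y axis, linear, from 0) in the 3 libraries of each group (points), with mean and SD beside them (bar and whiskers, n = 3). *EGR1* lay at 7.46 to 17.1 in the 6 A549 libraries and at 175 to 262 in the 6 PC9 libraries, and the A549-HOXC6 points of *DUSP4* and *DUSP5* lay below those of A549-NEO.

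*EGR1* encodes a zinc-finger transcription factor and is a classical immediate early gene. It lies on chromosome 5 from 137801168 to 137804992 (GRCh37, forward strand). Its normalized CPM was 7.63, 8.44 and 7.46 in A549-NEO and 223, 175 and 200 in PC9-NEO. The groups lay far apart, with the A549-NEO libraries at 22, 21 and 19 raw counts. The log2 difference (A549-NEO minus PC9-NEO) was -4.62 (SE 0.148), 24.6-fold lower in A549-NEO (adjusted p = 9.65e-26, edgeR's quasi-likelihood test with Benjamini-Hochberg adjustment over 9076 genes, as in the other sentences on the NEO lines).

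*DUSP6* encodes a cytoplasmic phosphatase that acts on ERK, while *DUSP5* encodes a nuclear one. The *DUSP6* locus is on chromosome 12 (89741012 to 89746278, reverse strand) and that of *DUSP5* on chromosome 10 (112257665 to 112271291, forward strand). Normalized CPM of *DUSP6* was 16.3, 21.7 and 11.4 in A549-NEO and 91.9, 87.6 and 97.6 in PC9-NEO, and the log2 difference was -2.45 (SE 0.160; edgeR adjusted p = 2.957e-16). *DUSP5* went the other way. It had 567, 573 and 605 normalized CPM in A549-NEO and 69.2, 61.4 and 78.0 in PC9-NEO, 8.55-fold higher in A549-NEO (log2 difference 3.10, SE 0.0845, edgeR adjusted p = 6.129e-28). So in A549-NEO the transcript of the nuclear ERK phosphatase was the more abundant by level per kilobase. In PC9-NEO the 2 transcripts overlapped within 1 SD. In *DUSP6*, 1105 bp of exon overlap a gene on the opposite strand and the strand setting of the counting is not given, so reads of the 2 genes cannot be told apart. In *PHLDA1* the overlap is 553 bp.

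*PHLDA1*, a pleckstrin homology-like protein (chromosome 12, 76419227 to 76425556, reverse strand), had 402, 405 and 447 normalized CPM in A549-NEO and 122, 114 and 126 in PC9-NEO. Every A549-NEO library was above every PC9-NEO library. The difference was 3.56-fold (log2 1.83, SE 0.0788, edgeR adjusted p = 1.049e-21). *DUSP4*, a nuclear phosphatase of ERK and other MAP kinases (chromosome 8, 29190581 to 29208201, reverse strand), differed less, with 459, 457 and 409 against 382, 357 and 369 normalized CPM. It was 1.23-fold higher in A549-NEO (log2 0.30, SE 0.0668, edgeR adjusted p = 1.494e-04).

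The Sprouty and SPRED proteins act on the signal between receptor and RAF. *SPRY1* (chromosome 4, 124317950 to 124324915, forward strand) had 5.20, 6.43 and 4.32 normalized CPM in A549-NEO and 11.3, 12.1 and 8.06 in PC9-NEO. These were 11 to 24 raw counts, and the groups did not overlap (log2 difference -0.92, SE 0.334, edgeR adjusted p = 0.01362). The call was lost with DESeq2 (adjusted p = 0.06174) and without A549-NEO replicate 3 or PC9-NEO replicate 2 (-0.78 and -0.82). *SPRED1* (chromosome 15, 38545037 to 38649450, forward strand) had 15.3, 20.9 and 27.1 normalized CPM against 28.6, 29.2 and 29.3. All 3 A549-NEO values were lower, but the test did not pass (log2 -0.43, 95% interval -0.84 to -0.02, edgeR adjusted p = 0.05399), whereas it did after the GC and length correction (-0.54, adjusted p = 0.0158) and without A549-NEO replicate 3 (-0.64, adjusted p = 0.01153). *SPRY2* (chromosome 13, 80910111 to 80915261, reverse strand) overlapped between the lines, at 25.7, 16.9 and 14.1 against 19.5, 18.6 and 16.1 normalized CPM (log2 0.13, 95% interval -0.34 to 0.60, edgeR adjusted p = 0.6344).

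*ETV1* encodes an ETS factor of the PEA3 group (chromosome 7, 13930854 to 14031050, reverse strand). It was counted 10, 9 and 7 times in A549-NEO, 18, 2 and 6 times in A549-HOXC6, and 2, 1 and 0 times in PC9-NEO. PC9-HOXC6 had 1, 1 and 0 counts. All 6 PC9 libraries were under the floor of 3 counts, and the gene was too low to be tested in any of the 4 comparisons. Against the floor taken per library, the mean level was at least 2.23-fold higher in A549-NEO than in PC9-NEO. A change of *ETV1* with HOXC6 was not detectable at this depth.

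In all, 6 of the 8 members tested passed between the NEO lines, 3 higher and 3 lower in A549-NEO, where 72.7% of the 9076 genes passed (36.9% higher, 35.7% lower), so the members' share was near that of all genes. Of these members, 4 differed beyond a log2 value of 1, against 36.0% of genes. The median absolute log2 difference was 1.38 for the 8 members and 0.705 for all genes. The groups did not overlap for 7 of 8 members and 74.4% of genes. The members were chosen with earlier results of these data known, so these comparisons with all genes only describe the list.

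**Figure D2:**
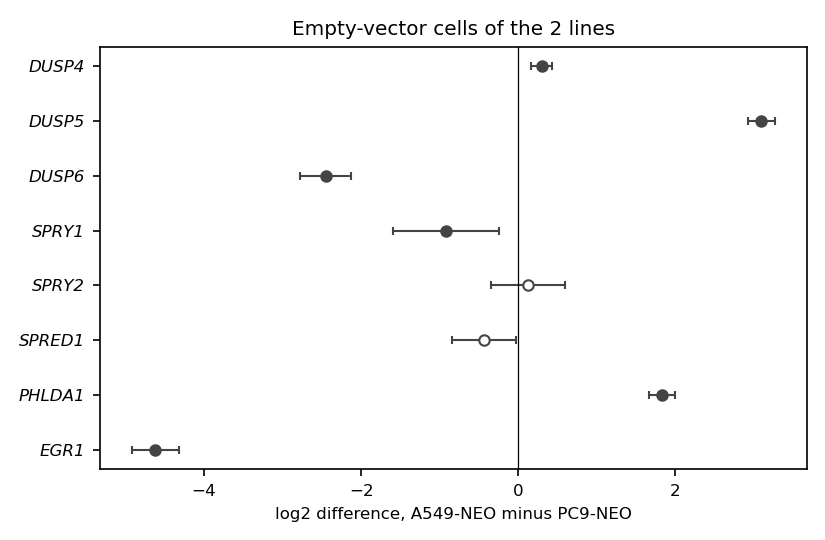
Log2 difference between A549-NEO and PC9-NEO (x axis, positive is higher in A549-NEO) for the 8 members tested, with 95% intervals from edgeR over 3 and 3 libraries. Filled points passed at an adjusted p under 0.05. *EGR1* (-4.62) and *DUSP6* (-2.45) lay far to the left, and *DUSP5* (3.10) and *PHLDA1* (1.83) to the right.

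Over the 12 libraries, the correlations among members followed the line, except most of those of *DUSP4* and *SPRY2*. Pearson's r of log2 normalized CPM was 0.98 between *DUSP5* and *PHLDA1* and 0.984 between *DUSP6* and *EGR1*, and it was -0.973 between *DUSP5* and *DUSP6*. *DUSP4* was like none of the others, with r from -0.54 to 0.15. *SPRY2* had r of -0.363 to 0.369 with *DUSP5*, *DUSP6*, *SPRY1*, *PHLDA1* and *EGR1*, and of -0.771 with *SPRED1*. Among 9228 genes, those most like *EGR1* were *BST2* (r = 0.997), *LRATD2* (0.996) and *MAL2* (0.996), and those most like *DUSP6* were *S100P* (0.994), *ARHGEF5* (0.992) and *SHROOM3* (0.992). Since the libraries fall into the 2 lines, these values, other than those of *DUSP4* and *SPRY2*, describe the line difference, with 6 libraries on each side.

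In A549, *DUSP4* and *DUSP5* fell with HOXC6. They were 2 of 8 members tested, where 39.6% of 8771 genes passed (18.9% higher, 20.7% lower). *DUSP4* had 274, 241 and 266 normalized CPM in A549-HOXC6, compared with the 459, 457 and 409 of A549-NEO. Every HOXC6 library was below every NEO library. The level in A549-HOXC6 was 57.5% of that in A549-NEO (log2 fold change -0.80, SE 0.0874, 95% interval -0.98 to -0.62, edgeR's quasi-likelihood test over 8771 genes, adjusted p = 4.758e-08). *DUSP5* had 567, 573 and 605 normalized CPM in A549-NEO against 349, 360 and 383 in A549-HOXC6, again without overlap. It was at 60.6% of A549-NEO (log2 -0.72, SE 0.0798, 95% interval -0.89 to -0.56, edgeR adjusted p = 5.623e-08). Both calls held in every alternative fit and without any 1 library, with log2 fold changes of -0.95 to -0.75 for *DUSP4* and -1.04 to -0.68 for *DUSP5* over the alternatives. Without A549-HOXC6 replicate 3 they were -0.79 and -0.75. Their transcripts have 51.4% and 55.8% GC, above the median of 48.7% of the genes tested. Beyond a log2 fold change of 1, which the study also asked for, no member passed in the fit reported, against 7.21% of genes. Over the alternatives *DUSP5* went past that value, to -1.04.

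The other 6 tested members did not pass in A549. *DUSP6* had 21.5, 21.4 and 22.5 normalized CPM in A549-HOXC6, against 16.3, 21.7 and 11.4 without HOXC6 (log2 0.36, 95% interval -0.13 to 0.85, edgeR adjusted p = 0.2396). *EGR1* stayed low, at 10.2, 17.1 and 8.03 normalized CPM in A549-HOXC6, with A549-HOXC6 replicate 2 apart from the others (log2 0.46, 95% interval -0.22 to 1.14, edgeR adjusted p = 0.2816). Both genes were at 15 to 59 raw counts, and their intervals include no change as well as the values given. *SPRY2* had 25.8, 25.7 and 25.7 normalized CPM in A549-HOXC6 against 25.7, 16.9 and 14.1 in A549-NEO. Its HOXC6 libraries lay just above the highest NEO library, and the gene passed once A549-NEO replicate 1 was left out (log2 0.68, edgeR adjusted p = 0.0409) but not with all libraries (0.39, adjusted p = 0.1765). *PHLDA1* differed by a log2 value of -0.15 (95% interval -0.32 to 0.03, edgeR adjusted p = 0.176), *SPRED1* by -0.28 (adjusted p = 0.3715) and *SPRY1* by -0.13 (adjusted p = 0.8304). The signs of *PHLDA1* and *SPRED1* turned with the GC and length correction, at 0.09 and 0.38.

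Over the list, the median log2 fold change in A549 was -0.138 for the 8 members and 0 for all genes. In 3 of 8 members the groups did not overlap, against 50.4% of genes.

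In PC9, *EGR1* and *DUSP6* rose with HOXC6 and *DUSP4* fell. They were 3 of 8 members tested, where 27.5% of 8419 genes passed (13.3% higher, 14.2% lower). *EGR1* had 259, 262 and 252 normalized CPM in PC9-HOXC6, compared with 223, 175 and 200 in PC9-NEO. All HOXC6 libraries were above all NEO libraries. It was 1.29-fold higher (log2 0.37, SE 0.0836, 95% interval 0.20 to 0.54, edgeR over 8419 genes, adjusted p = 0.001137). After the GC and length correction its change was 0.16 and no longer passed (adjusted p = 0.1512), and the GC content of its transcript, 55.3%, is above the median of 48.7% of the genes tested.

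*DUSP4* had 335, 303 and 308 normalized CPM in PC9-HOXC6, below the 382, 357 and 369 of PC9-NEO. The groups did not overlap, and the level in PC9-HOXC6 was 85.7% of that in PC9-NEO (log2 -0.22, SE 0.0703, edgeR adjusted p = 0.01714). The fall was larger after the GC and length correction, at -0.37 (adjusted p = 2.06e-04). It did not pass with DESeq2 (adjusted p = 0.05524), in libraries thinned to equal depth (0.07266), or without PC9-NEO replicate 1, PC9-HOXC6 replicate 2 or PC9-HOXC6 replicate 3, where it was -0.20, -0.19 and -0.19.

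*DUSP6* had 112, 112 and 109 normalized CPM in PC9-HOXC6, above the 91.9, 87.6 and 97.6 of PC9-NEO. It was 1.20-fold higher (log2 0.27, SE 0.101, edgeR adjusted p = 0.04784), just inside the threshold. It passed in 3 of 10 alternative fits and, with 1 library left out, only without PC9-NEO replicate 3, while it was 0.23 to 0.29 without any of the other 5. After the GC and length correction it was 0.19 (adjusted p = 0.1792). *DUSP5* had 84.9, 84.8 and 85.1 normalized CPM in PC9-HOXC6, compared with 69.2, 61.4 and 78.0 in PC9-NEO. The HOXC6 libraries were all above the NEO libraries, but the gene did not pass (log2 0.28, 95% interval 0.04 to 0.52, edgeR adjusted p = 0.07134), although it did without PC9-NEO replicate 3 (0.38, adjusted p = 0.03317). After the GC and length correction it was 0.08.

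*SPRY1*, *SPRY2*, *SPRED1* and *PHLDA1* had overlapping groups in PC9 and did not pass, with log2 fold changes of -0.38, 0.06, -0.02 and -0.10. *SPRED1*, a transcript of low GC content (36.3%), passed after the GC and length correction as higher in PC9-HOXC6 (0.52, edgeR adjusted p = 0.03714). No member in PC9 reached a log2 fold change beyond 1, against 4.53% of genes. The median log2 fold change was 0.017 for the members and -0.005 for all genes. Groups did not overlap in 4 of 8 members and in 39.9% of genes.

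The changes of 2 of 8 members differed between the lines, where 19.4% of 9229 genes passed the interaction test (10.9% higher, 8.44% lower). For *DUSP5* the A549 change minus the PC9 change was -0.96 on the log2 scale (SE 0.136, 95% interval -1.24 to -0.69, edgeR interaction term, adjusted p = 1.365e-06). *DUSP5* fell in A549, while its change in PC9, 0.28, did not pass. For *DUSP4* the difference was -0.53 (SE 0.116, 95% interval -0.76 to -0.30, edgeR adjusted p = 8.21e-04), a fall in both lines that was deeper in A549. Both interaction calls held in every alternative fit with the adjusted p alone and without any 1 library.

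The interaction did not pass for the other 6 members. The differences were 0.14 for *DUSP6* (95% interval -0.33 to 0.62), 0.11 for *EGR1* (-0.45 to 0.68) and 0.00 for *PHLDA1* (-0.25 to 0.26). The interval was narrow for *PHLDA1* and wide for *SPRY1* (0.30, -0.77 to 1.36). Thus *EGR1* and *DUSP6* passed in PC9 and not in A549 without a difference between the lines being shown. Beyond a log2 value of 1, no member and 5.15% of genes passed in the fit reported. Over the alternatives the *DUSP5* difference went past that value, to -1.06.

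**Figure D3:**
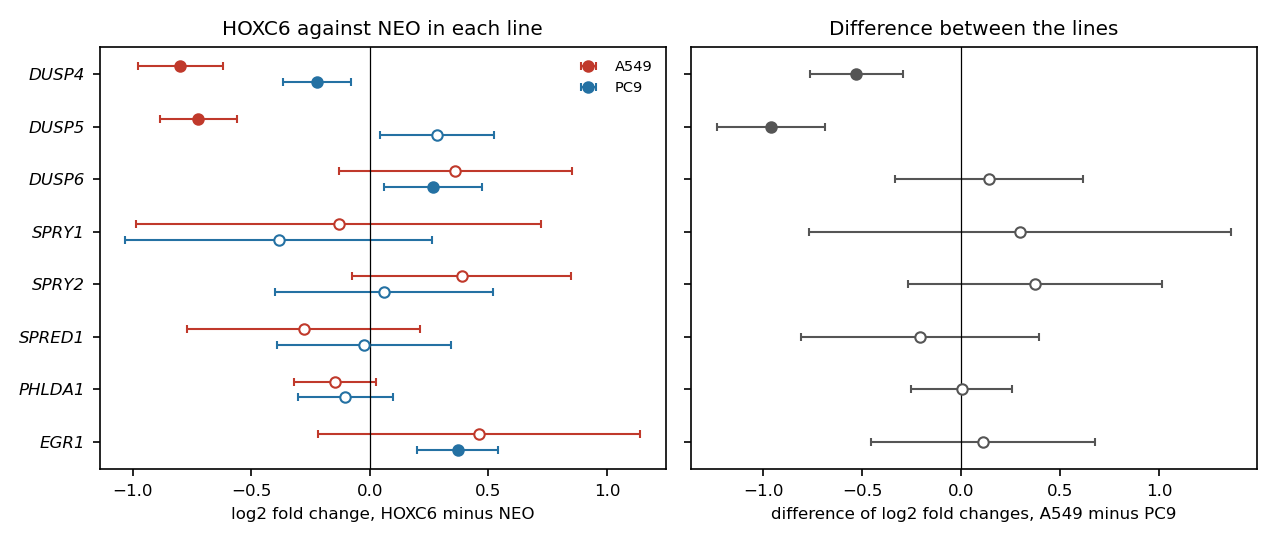
Left, log2 fold change of HOXC6 against NEO (x axis) in A549 (red) and PC9 (blue) for the 8 members tested. Right, the A549 change minus the PC9 change. Bars are 95% intervals from edgeR and filled points passed at an adjusted p under 0.05. Only *DUSP4* and *DUSP5* are filled on the right, at -0.53 and -0.96.

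**Figure D4:**
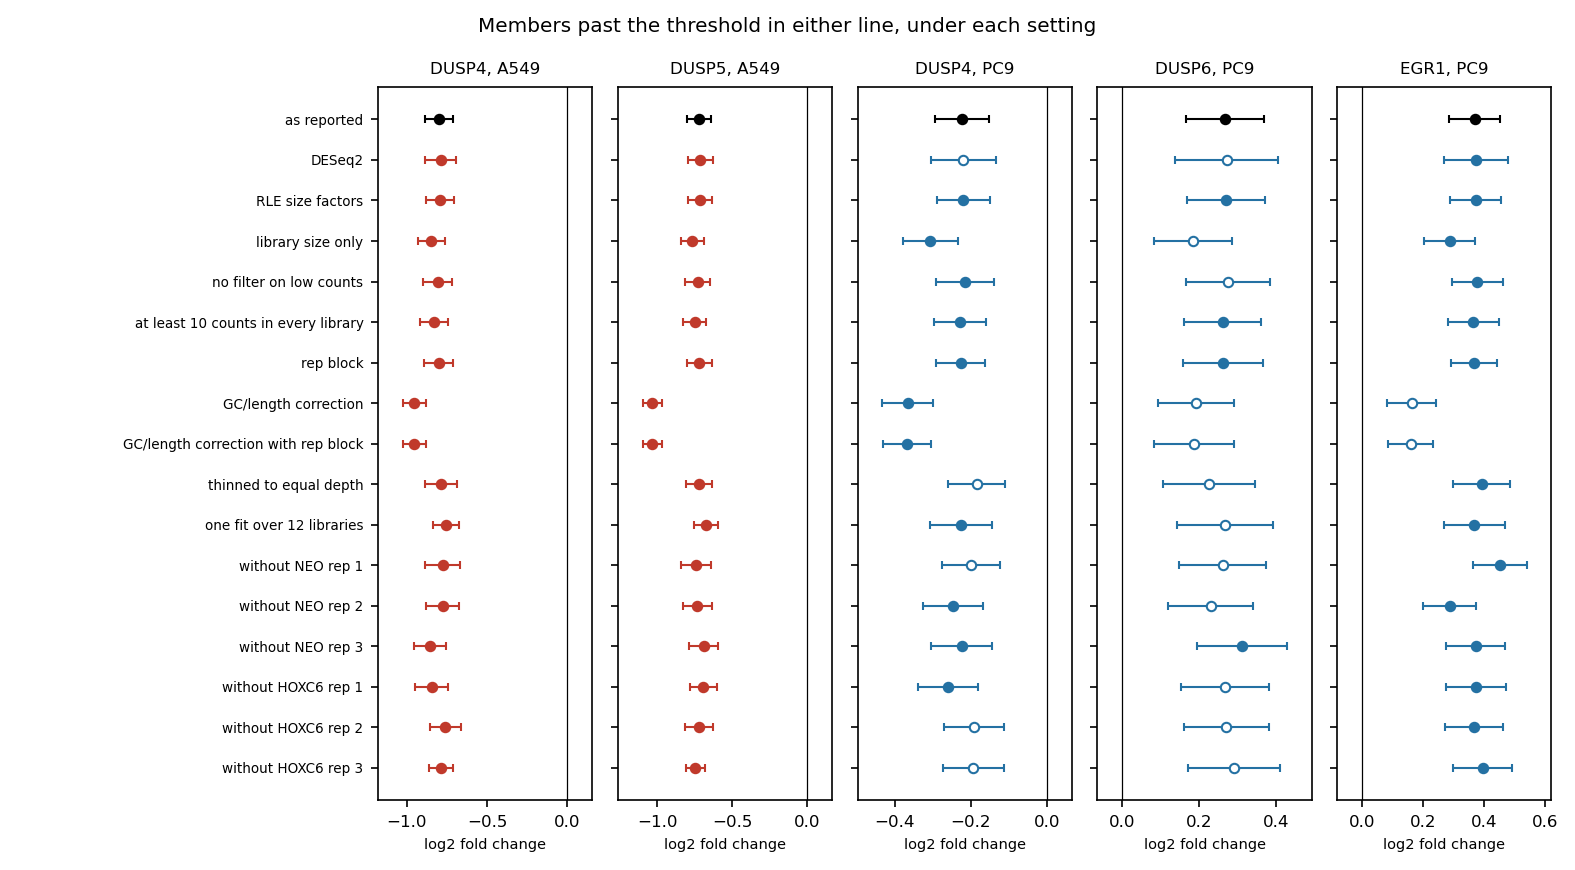
Log2 fold change (x axis, its own linear scale in each panel) with SE for the 5 member changes that passed, under each alternative and without each library (rows). Filled points passed. *DUSP4* and *DUSP5* in A549 are filled throughout, while *DUSP6* in PC9 is open in 12 of 16 settings other than the one reported.

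The genes upstream and beside these members were read from lists of pathway genes, beside the 18.9% of all genes that rose and the 20.7% that fell in A549 and the 13.3% and 14.2% in PC9. Each list covers only its genes in the count table. Of 37 RAS-ERK genes listed, 30 were there, without *GRB2*, *PTPN11*, *HRAS*, *NRAS*, *NF1*, *MAP2K1* and *RPS6KA3*. Among the RAS-ERK genes, from receptors to transcription factors, 6 rose, 11 fell and 12 did not pass in A549 (29 tested). In PC9, 8 rose, 6 fell and 16 did not pass (30 tested). These tallies, like those of the other lists, come from fits without the GC and length correction. The largest changes in A549 were falls of *LAMTOR3* (-1.45), a scaffold of MEK and ERK, *SHOC2* (-1.10), which helps to activate RAF, and *ELK4* (-0.96), a ternary complex factor. *LAMTOR3* had 14, 6 and 8 raw counts in A549-HOXC6 against 31, 38 and 33 in A549-NEO. After the GC and length correction *SHOC2* (-0.57) and *ELK4* (-0.39) no longer passed, and *LAMTOR3* was -0.95, which did not pass with the replicate block added (-0.91, edgeR adjusted p = 0.05515). In PC9 the largest were *SOS2* (-0.99) and *SOS1* (-0.92), exchange factors that load RAS, and *RASA1* (-0.69), which turns RAS off. Without the GC and length correction, *SOS1* (-0.89) and *RASA1* (-0.91) also fell in A549 and *ELK4* (-0.64) in PC9. *SOS2* in A549 (-0.50) and *LAMTOR3* (-0.10) and *SHOC2* (-0.12) in PC9 did not pass. Of these genes only *LAMTOR3* passed the interaction test.

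EGFR-family ligands are made as membrane proteins and shed to activate EGFR and its relatives. Epiregulin (*EREG*) had 61.9, 80.5 and 52.4 normalized CPM in A549-HOXC6, less than the 131, 142 and 126 of A549-NEO, and it fell by 1.11 on the log2 scale (edgeR adjusted p = 1.747e-07). With the GC and length correction its change was -0.53 and still passed. *HBEGF* also fell (-0.84, edgeR adjusted p = 0.03878). The call held in 7 of 9 alternative fits, but not with DESeq2 (adjusted p = 0.1401) or after thinning (edgeR adjusted p = 0.06183). With 1 library left out, it held only without A549-HOXC6 replicate 3. The other 3 ligands tested in A549 did not pass, nor did the 3 tested in PC9, which differed by -0.35 to 0.29. *EREG* was the -0.35 in PC9, with all HOXC6 libraries below all NEO libraries. A difference of its change between the lines was not shown (interaction -0.715, edgeR adjusted p = 0.1004). The listed ligands *BTC* and *EPGN* were not in the count table. Between the NEO lines, *NRG1* was at least 81.1-fold higher in A549-NEO, where PC9-NEO had at most 2 counts, and *EREG* was higher there by 3.70.

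Of other immediate early genes, 2 rose, 3 fell and 5 did not pass in A549. Of the 18 listed, 12 were in the count table, without *FOS*, *FOSL1*, *JUN*, *JUNB*, *EGR3* and *MAFF*. *DUSP1*, a phosphatase of several MAP kinases, had 854, 847 and 923 normalized CPM in A549-HOXC6, above the 557, 610 and 576 of A549-NEO (log2 0.55, edgeR adjusted p = 1.729e-06), opposite in sign to *DUSP4* and *DUSP5* in the same libraries. With the GC and length correction it was 0.22 and still passed. *BTG2*, an antiproliferative gene, fell in A549 (-0.82) and rose in PC9 (0.83), and *ZFP36*, an mRNA decay factor, fell in A549 (-0.53). In PC9, 3 immediate early genes rose (*BTG2*, *KLF10* at 0.45 and *IER2* at 0.23) and 6 did not pass. With the GC and length correction *BTG2* (0.66, edgeR adjusted p = 0.05917) and *IER2* (-0.02) no longer passed in PC9. With the replicate block added to it, *BTG2* passed (0.69, edgeR adjusted p = 0.0358) and *IER2* did not (-0.02). The *BTG2* call was also lost with DESeq2 (adjusted p = 0.0583) and without PC9-NEO replicate 3 (0.70). That of *IER2* was lost with library-size scaling (0.14, edgeR adjusted p = 0.1318) and without PC9-HOXC6 replicate 3 (0.21). Between the NEO lines 8 of 10 were higher in A549-NEO and the other 2 did not pass. Of all genes, 36.9% were higher and 35.7% lower there. The largest were *DUSP1* (5.46), *ATF3* (2.29, with 12, 4 and 4 raw counts in PC9-NEO) and *BTG2* (1.80). This list too was chosen with earlier results of these data known, so its share only describes it. *EGR1* was lower by 4.62.

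Of 14 other ERK output genes listed, 6 were in the count table, without *ETV4*, *ETV5*, *SPRY4*, *SPRED2*, *SPRED3*, *PHLDA2*, *UPP1* and *SPHK1*. Among those present, 1 of 5 tested passed in A549, a fall of *ERRFI1* (-0.34), which encodes an inhibitor of EGFR. The call was lost with DESeq2 (adjusted p = 0.05186), with the GC and length correction and replicate block (edgeR adjusted p = 0.05433) and without A549-NEO replicate 3 (-0.27). In PC9, 3 rose, 2 fell and 1 did not pass. The largest were *EPHA4* (0.67), an ephrin receptor, *PLAUR* (0.57), the urokinase receptor, and *CCND1* (-0.54), the cyclin D1 gene. *ERRFI1* was among those that rose in PC9 (0.32, edgeR adjusted p = 0.0031), opposite in sign to its change in A549. Between the NEO lines 2 were higher and 4 lower in A549-NEO, with *EPHA4* at -3.32, *CCND1* at -2.19 and *TNFRSF12A* at -1.64. The value of *EPHA4* rests on 6, 6 and 11 raw counts in A549-NEO. Of the other MAP kinase phosphatases *DUSP1* was the 1 of 5 that passed in A549, and the 6 tested in PC9 had log2 fold changes of -0.09 to 0.62 that did not pass. *DUSP8* was listed but not in the count table. Between the NEO lines 2 were higher and 1 lower. *DUSP16* was higher in A549-NEO by 0.76 and *DUSP2* at least 4.87-fold lower. Between the NEO lines the RAS-ERK genes divided into 13 higher, 11 lower and 6 that did not pass, with *ERBB3* at -3.37 and *KSR1* at 1.91. *RPS6KA2*, an ERK-activated kinase, was counted 0, 3 and 4 times in A549-NEO and 132, 140 and 186 times in PC9-NEO, so the size of its difference is not given. These lists stand against the 36.9% of genes that were higher and the 35.7% that were lower. In the interaction test, 3 of 30 RAS-ERK genes passed as higher and 4 as lower. The same counts were 1 and 3 of 10 immediate early genes and 1 and 2 of 6 other ERK output genes. No ligand (6 tested) and no other MAP kinase phosphatase (6 tested, *DUSP1* among them) passed it. Of all 9229 genes, 10.9% passed the interaction test as higher and 8.44% as lower.

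**Figure D5:**
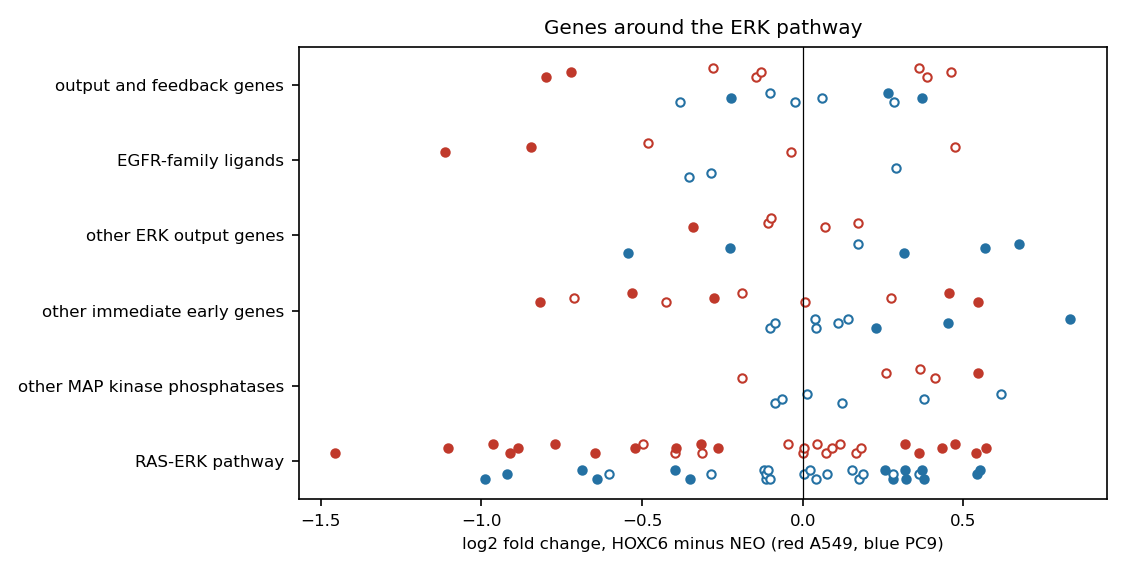
Log2 fold change of HOXC6 against NEO (x axis) for the members and for 5 lists of pathway genes, 1 point per gene, A549 in red above PC9 in blue. Filled points passed at an adjusted p under 0.05. Filled A549 points of the ligands lie on the left (*EREG* at -1.11), and those of the RAS-ERK pathway lie on both sides.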

How the data were processed

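The authors sequenced poly(A) RNA as directional libraries, aligned the reads to GRCh37.p13 with HISAT2 2.1.0 and counted them with HTSeq 0.9.1, as named in the submitters' processing notes. The strand setting and annotation release are not given in the sources used here. The deposited values are the authors' raw read counts per gene, with 1 column per library. The table used here holds 12584 complete genes, 60.7% of annotated protein-coding genes among them, and 1 incomplete last line was left out, so totals, scaling and adjustment cover these genes.

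Counts were filtered with filterByExpr, scaled by TMM and compared with edgeR 4.0.16 (R 4.3.3), by the quasi-likelihood test with Benjamini-Hochberg adjustment over all genes tested. HOXC6 was compared with NEO in the 6 libraries of each line, the NEO lines in their 6 libraries, and the lines' changes by an interaction term over 12 libraries. A gene passed at an adjusted p under 0.05. Names, positions and GC content came from GENCODE on GRCh37, and promoters from RefSeq. Floors of 3 counts cover counting error only.

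The members and the lists were chosen with earlier results of these data known. All members were named, with up to 3 genes per list and comparison (the largest changes past the threshold) and the 3 genes most like *DUSP6* and *EGR1*. *DUSP1* stands in 2 lists. The alternatives were DESeq2 1.42.0, RLE or library-size scaling, no filter, a minimum of 10 counts per library, a stricter adjusted p of 0.01, a log2 fold change beyond 1, the replicate number as a block, correction for GC content and length (mgcv 1.9.3) without and with that block, thinning to equal depth, a single fit of 12 libraries and each library left out. The fits were checked on simulated counts.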

Additional observations from a re-analysis of the deposited data

Results flagged for a closer look

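The A549 change minus the PC9 change passed the interaction test of edgeR (adjusted p under 0.05) for 2 members and, in the pathway lists, for 4 immediate early genes, 3 other ERK output genes and 7 RAS-ERK genes, where 19.4% of all genes passed. Values on the log2 scale are given for the members and the 3 genes of each list with the largest differences. It was -0.96 for *DUSP5* and -0.53 for *DUSP4*. Among immediate early genes it was -1.60 for *BTG2*, 0.60 for *MYC* and -0.53 for *ZFP36*. Among other ERK output genes it was 0.76 for *CCND1*, -0.61 for *ERRFI1* and -0.63 for *PLAUR*. In the RAS-ERK pathway it was -0.76 for *MKNK2*, -0.82 for *ETS2* and -1.31 for *LAMTOR3*. The interaction calls of *ZFP36* and *LAMTOR3* were lost in 6 and 5 of the 12 fits that left out 1 library, at -0.51 to -0.45 and -1.27 to -1.13. That of *LAMTOR3* was also lost with DESeq2 (adjusted p = 0.05864), with the GC and length correction and replicate block (edgeR adjusted p = 0.05833) and after thinning (edgeR adjusted p = 0.05832), and that of *ETS2* after thinning (edgeR adjusted p = 0.0526).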

How the results depend on the processing

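With a log2 fold change beyond 1 required of the fits reported, 0 members passed in A549, 0 in PC9 and 0 in the interaction. Over the alternatives *DUSP5* went past that value, to -1.04 in A549 and -1.06 in the interaction. In PC9, where 3 members passed, 1 passed at an adjusted p under 0.01, 1 with DESeq2 and 1 after thinning. Leaving out 1 library gave 1 to 4 in PC9 (1 without PC9-NEO replicate 1, PC9-HOXC6 replicate 2 or PC9-HOXC6 replicate 3), 2 to 3 in A549, 5 to 6 between the NEO lines and 2 in the interaction. The replicate block gave 2 members in A549, 3 in PC9, 6 between the NEO lines and 2 in the interaction, the counts without it. Libraries of the same number did not deviate together (r from -0.048 to 0.042). In A549 2 of 6 libraries, in PC9 2 of 6 and between the NEO lines 1 of 6 correlated best with their own number. So no sharing by number was seen, which cannot show how the replicates were prepared.

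Signs turned for members that had not passed. With the GC and length correction, and with the block added, A549 *SPRED1* was 0.38 and 0.43, A549 *PHLDA1* 0.0867 and 0.0892, PC9 *SPRY2* -0.0573 and -0.0461, PC9 *SPRED1* 0.52 and 0.50 and PC9 *PHLDA1* 0.0418 and 0.0363. PC9 *IER2*, which had passed, was -0.019 and -0.0166. PC9 *SPRY2* was -0.0235 with library size only, and PC9 *SPRED1* 0.0289 after thinning. In the interaction *PHLDA1* was -0.0451 with DESeq2, -0.046 with RLE, -0.0055 with library size only, -0.0013 with no filter and -0.0139 with at least 10 counts, and thinning gave -0.14 for *DUSP6* and -0.10 for *SPRY1*. Ranges over left-out libraries crossed 0 for A549 *SPRY1* (-0.34 to 0.12), PC9 *SPRY2* (-0.0229 to 0.11), PC9 *SPRED1* (-0.15 to 0.0392), NEO *SPRY2* (-0.16 to 0.31) and, in the interaction, *PHLDA1* (-0.0578 to 0.0519), *DUSP6* (-0.0591 to 0.37), *SPRED1* (-0.40 to 0.0142) and *EGR1* (-0.11 to 0.28). The causes were not tested. Scaling by library size only shifted all log2 differences between the NEO lines by -0.11, which changed no direction of a member there. *SPRY1* gave no value in A549 or the interaction with at least 10 counts in every library, nor in A549 after thinning. Depth limits *ETV1*, *SPRY1* and, in A549, *EGR1*, and a count table that holds part of the genes limits the lists.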
